A study of Homo sapiens with 6 samples.

Results

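The comparison described here is the induction of a tagged LIN28B gene in mock-transfected HEK293 cells. It was chosen by the array labels alone: 2 arrays labelled as induced were set against 2 labelled as not induced, of 6 arrays in the series. All 4 carried RNA of HEK293 T-REx Flp-In cells. This is a derivative of a human embryonic kidney line with an insertion site for a transgene under a tetracycline-controlled promoter. In every group the cells held a stably inserted LIN28B gene with a FLAG/HA tag, so the not induced cells are no untouched HEK293 cells but the same line without doxycycline. The mock cells of both groups went through the transfection without siRNA against LIN28B, and the remaining 2 arrays came from not induced cells given that siRNA. Per the growth protocol, doxycycline was used at 250 ng/ml, for 15 to 20 h ahead of a crosslinking experiment, while for the cells on the arrays no induction time is stated in these sources. They also do not state whether the line was 1 clone, or whether the numbered replicates were separate cultures. The p-values therefore measure only how far these arrays differ among themselves, and that may be technical. Of 13008 probe sets in the deposited table, the 11719 with 1 gene symbol were used, and these stood for 11584 genes.

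LIN28B and its paralog LIN28A are RNA-binding proteins of embryonic and many tumour cells. They bind the precursors of the let-7 microRNAs and block their cutting, and LIN28A recruits enzymes that add uridines to the precursor's end. Mature let-7 in turn represses mRNAs such as HMGA2, MYC, IGF2BP2 and LIN28B itself, so that LIN28B and let-7 oppose each other. LIN28 proteins also bind many mRNAs directly, among them mRNAs of ribosomal proteins, splicing factors and metabolic enzymes. The labelled induction is meant to add tagged LIN28B, and the arrays measured no protein.

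The let-7 sequences are shown as background to the targets used below. Those targets were taken as a list of gene symbols, and no mRNA was searched for the seed here. All 9 mature names of the family in the RefSeq table (assembly GRCh38.p14) share the seed, bases 2 to 8, printed in capitals. 4 of the 9 are given here.
hsa-let-7a-5p: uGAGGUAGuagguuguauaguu
hsa-let-7d-5p: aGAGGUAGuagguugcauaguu
hsa-let-7g-5p: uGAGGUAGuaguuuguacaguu
hsa-miR-98-5p: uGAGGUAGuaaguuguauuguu
They differ outside the seed, which is the part that pairs with target mRNAs. The hairpin from which let-7g is cut lies at chr3:52268278-52268361, minus strand, in GRCh38.p14. The letters GGAG, which the zinc knuckles of LIN28 proteins are known to bind, are in capitals.
MIRLET7G: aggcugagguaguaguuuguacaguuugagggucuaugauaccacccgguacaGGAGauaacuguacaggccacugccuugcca
GGAG was searched on the hairpin's own strand and stood after the mature sequence in 9 of the 12 let-7 family hairpins. It was in 43.4% of all 1562 hairpins of the table, anywhere in the hairpin, and in 75.0% of the let-7 family. A match is a description of letters, and the hairpins of MIRLET7A3, MIRLET7B and MIR98 held none. The arrays read mRNAs and not mature microRNAs, so no let-7 level is given.

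The values are the authors' deposited log2 signals, with medians between 7.161 and 7.177 on the 4 mock arrays. Of the 10 markers of HEK293 cells looked for, 8 were in the table, all bounded within 1.5-fold between the groups, among them VIM, an intermediate filament gene, at 12.56 and 12.65 without and 12.59 and 12.61 with induction. NEFM, PAX2 and the endothelial markers were not analysed here. Of markers of other cells, 5 were in the table: the collagen gene COL1A1 at 5.96 to 6.25, the blood genes CD79A and HBB at 4.93 to 5.23, the liver gene TTR at 5.30 to 5.49 and SOX2, a gene of stem cells, at 7.43 to 7.54. The table holds nearly only probe sets above 5 on at least 2 arrays, so a gene switched off in all cells was not analysed here. In RNA from whole wells, fewer cells of a kind and less RNA per cell cannot be told apart.

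LIN28B itself read 10.02 and 9.85 without induction and 10.15 and 10.11 with it. Both induced arrays lay above both not induced arrays, with means of 9.94 ± 0.12 (SD, n = 2) and 10.13 ± 0.025 (SD, n = 2). The difference was 0.19 on the log2 scale (SE 0.078, 95% interval 0.017 to 0.37), or 1.14-fold with an interval from 1.01-fold to 1.29-fold. It did not pass, with an adjusted p of 0.999 in limma's moderated test over all genes. The same fit bounded the gene within 1.5-fold (limma, adjusted p of the equivalence test 0.000867). The value depended on the not induced arrays: with replicate 2 alone on that side it was 0.28, and with replicate 1 alone 0.11. The labels' induction is thus not visible as a called rise of the LIN28B probe set, and the sources used here do not say whether this probe set reads the transgene's mRNA as well as the cell's own. On the siRNA arrays the same probe set read 7.51 and 7.53, and induced cells stood above those by 2.61 (SE 0.078, limma adjusted p = 2.72e-07), so the probe set followed the siRNA label.

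No gene passed the test of induction. In limma, 0 of 11584 genes (0%) were called at an adjusted p under 0.05, and the smallest adjusted p was 0.764. At an unadjusted p under 0.05 the same fit held 344 genes (2.97%), 175 higher (1.51%) and 169 lower (1.46%), where 579 would be listed if no gene differed. The differences were above 0 in 5562 genes (48%) and below 0 in 6022 (52%), with a median of -0.0049. The groups of 2 arrays did not overlap in 3183 genes (27.5%), 1565 higher (13.5%) and 1618 lower (14%). An exact permutation test of 2 arrays against 2 cannot give a two-sided p below 0.333 for any single gene. With as many arrays per group, the same model called 3295 genes (28.4%) between induced and siRNA arrays. The differences in that contrast were larger, so its calls do not show whether differences as small as those on induction could be called.

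A p that misses the threshold does not bound a difference, so each gene was also tested against fixed bounds. A gene is called bounded here when 2 one-sided moderated tests reject a change of at least that size in either direction, with Benjamini-Hochberg adjustment over all genes. By this test 11542 genes (99.6%) were bounded within 2-fold and 10753 (92.8%) within 1.5-fold. Read gene by gene from the 95% intervals, the limit farther from 0 was 0.35 for the median gene, or 1.28-fold. It was 1.52-fold or less for 90% of genes and 1.93-fold or less for 99%. Without adjustment over genes, the 95% interval lay inside 2-fold in 11503 genes (99.3%) and inside 1.5-fold in 10220 (88.2%). The widest limit was that of ZNF623, a zinc finger gene, at 3.70-fold.

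The measured differences were small beside these bounds. The median gene differed by 0.071 in size on the log2 scale, and 99% of genes by 0.46 or less. In all, 44 genes (0.38%) differed by 1.5-fold or more, 23 higher (0.199%) and 21 lower (0.181%). Of these, 40 had a mean level under 6 and the highest had 7.98, while 22.4% of all genes lay under 6. The groups did not overlap in 39 of the 44, which the choice by size of difference favours. Only ZNF320 and KYNU reached 2-fold (0.0173%), both lower.

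**Figure D1:**
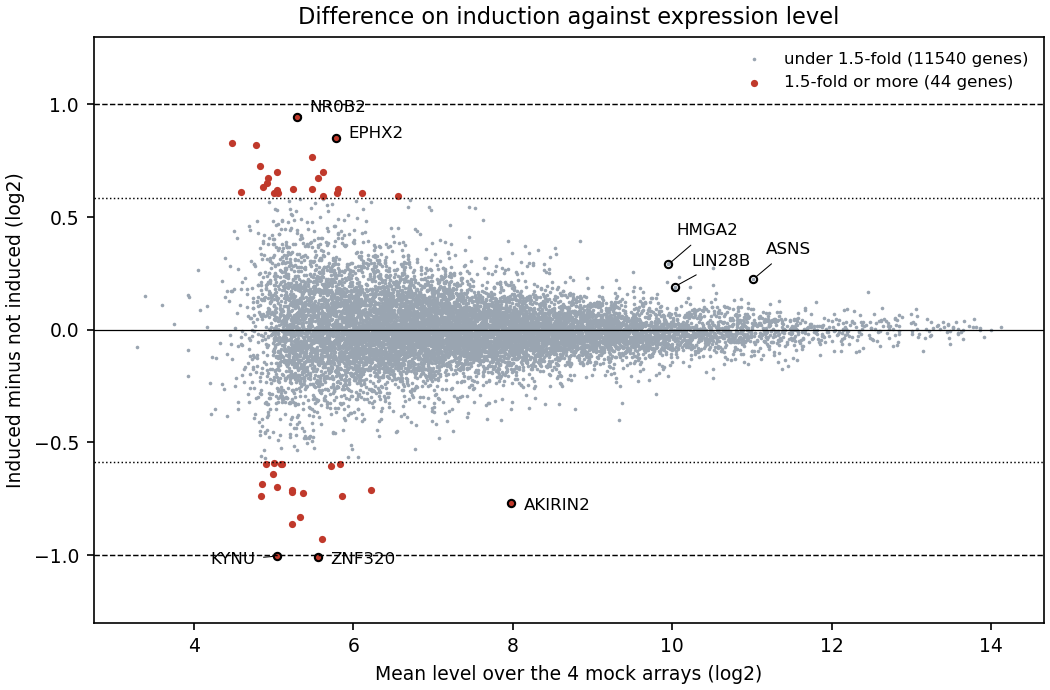
Difference between induced and not induced cells (log2, vertical) against the mean level over the 4 mock arrays (log2, horizontal), 1 point per gene. Red points are the 44 genes at 1.5-fold or more, dotted lines mark 1.5-fold and dashed lines 2-fold; 40 of the red points lie below a level of 6 and no gene at 8 or above is among them.

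Among genes that read higher, EPHX2 had the smallest p. EPHX2, the soluble epoxide hydrolase that opens fatty acid epoxides, read 5.35 and 5.37 without and 6.24 and 6.18 with induction. The arrays of each group were close and the groups apart, for a difference of 0.85 (SE 0.15, 95% interval 0.52 to 1.18) with a limma adjusted p of 0.829. NR0B2, a nuclear receptor that lacks a DNA-binding domain and represses bile acid synthesis in the liver, read 4.75 and 4.90 without and 5.75 and 5.79 with induction. Its difference of 0.95 (SE 0.19) had a limma adjusted p of 0.999. Both genes lie near the floor of the table. TIMP2, an inhibitor of metalloproteinases, read higher by 0.58 (SE 0.12), and SLPI, a secreted inhibitor of leukocyte proteases, by 0.83 (SE 0.19). SLPI lies nearer that floor than EPHX2 and NR0B2. Its mean over the 4 mock arrays was 4.48, the lowest of the 44 genes at 1.5-fold or more. ERC1, a scaffold protein of the cell cortex, read higher by 0.55 (SE 0.12). CLDN6, a tight junction protein of embryonic epithelia, read higher by 0.59 (SE 0.15). The remaining 4 of the 10 were FRA10AC1, SEMA4B, the alanine aminotransferase GPT and ASNS, at 0.23 to 0.62. On the siRNA arrays TIMP2, SLPI, SEMA4B and GPT also read above the not induced arrays, by 1.02, 1.08, 0.83 and 0.76. All were called there (limma adjusted p 0.000382, 0.00244, 0.00243 and 0.00521). EPHX2, ERC1, FRA10AC1, ASNS and CLDN6 read lower there and NR0B2 higher, none of them called. The same not induced arrays enter both differences.

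Among genes that read lower, ZNF320 had the smallest p of all genes. This zinc finger gene read 6.20 and 5.92 without and 5.07 and 5.04 with induction, with the groups apart by more than the gap within either. The difference was -1.01 (SE 0.15, 95% interval -1.35 to -0.67) and its limma adjusted p 0.764. The siRNA arrays read 6.32 and 6.21, so that the induced arrays were the low ones of all 6, and induced cells stood below siRNA cells by -1.21 (SE 0.15, limma adjusted p = 0.000468). ZNF320 was picked partly by those same induced arrays, so this call is no independent support. Its probe set is of a kind that can pick up related transcripts. KYNU, kynureninase of tryptophan breakdown, read 5.39 and 5.69 without and 4.74 and 4.33 with induction, a difference of -1.0 (SE 0.22). HYCC2 read lower by -0.71 (SE 0.12) and CROT, which moves fatty acids from peroxisomes, by -0.53 (SE 0.12).

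Only FBXL14 and RPS6KB1 of the 10 lower genes, beside CROT, had means above 6.5 in both groups. FBXL14, a substrate receptor of an SCF ubiquitin ligase, read 9.47 and 9.59 without and 9.09 and 9.17 with induction, a difference of -0.40 (SE 0.077). RPS6KB1, the S6 kinase downstream of mTOR, read 7.32 and 7.32 without and 6.84 and 6.84 with induction, a difference of -0.48 (SE 0.11). The gap within each pair of RPS6KB1 arrays was far below the difference between the groups, but its limma p of 0.0013 before adjustment became 0.999 after adjustment over all genes. The other 4 were SLIRP-OT1, the glutamate receptor gene GRIN2C, the immunoglobulin segment IGLV1-44 and SETD1A, a histone H3 lysine methyltransferase, at -0.93 to -0.53. On the siRNA arrays GRIN2C and IGLV1-44 also read below the not induced arrays, by -0.86 and -0.62 (limma adjusted p 0.0207 and 0.0314). CROT read above them there by 1.22 (limma adjusted p 0.000155). Of the remaining lower genes ZNF320 read above and the rest below, none of them called.

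**Figure D2:**
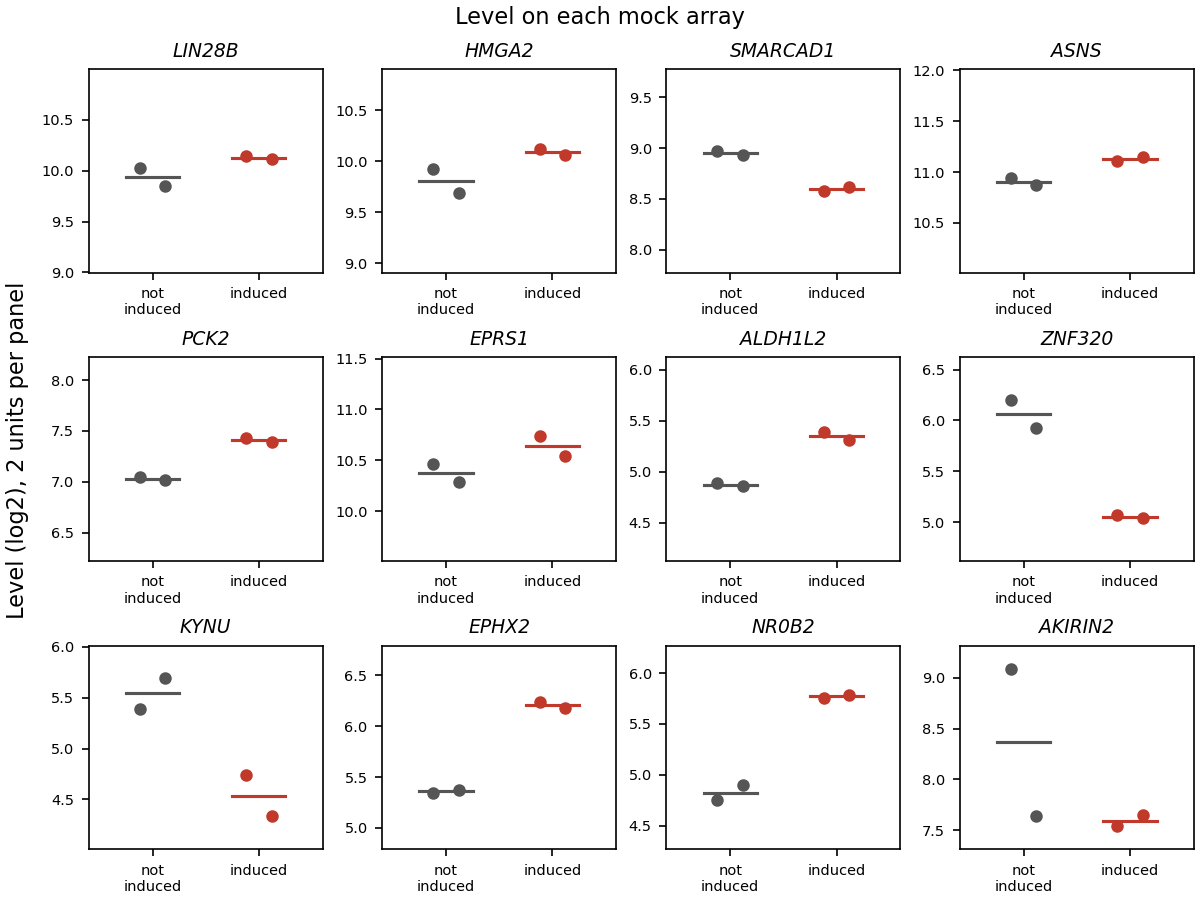
Level (log2) of 12 genes on each of the 4 mock arrays, with grey points for the 2 not induced arrays, red points for the 2 induced arrays and a line at each group's mean; every panel spans 2 log2 units. The groups do not overlap in any gene drawn except AKIRIN2, where a single not induced array at 9.09 stands above the other 3. Many of the genes drawn were picked by their differences, and over all genes the groups do not overlap in 27.5%.

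How alike the cells stayed can be read from pairs of arrays. The 2 not induced arrays differed by a median of 0.144 per gene and the 2 induced arrays by 0.0981. The 4 pairs of an induced with a not induced array differed by 0.100 to 0.122, between the values of the pairs within a group. Genes apart by 1.5-fold or more numbered 327 in the not induced pair, 148 in the induced pair and 150 to 246 in the 4 mixed pairs. For scale, pairs of an siRNA with a not induced array differed by 0.220 to 0.240, with 1373 to 1604 genes at 1.5-fold or more. The not induced group was the more spread group, with a median SD per gene of 0.101 against 0.0693 in the induced group and 0.0729 in the siRNA group.

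**Figure D3:**
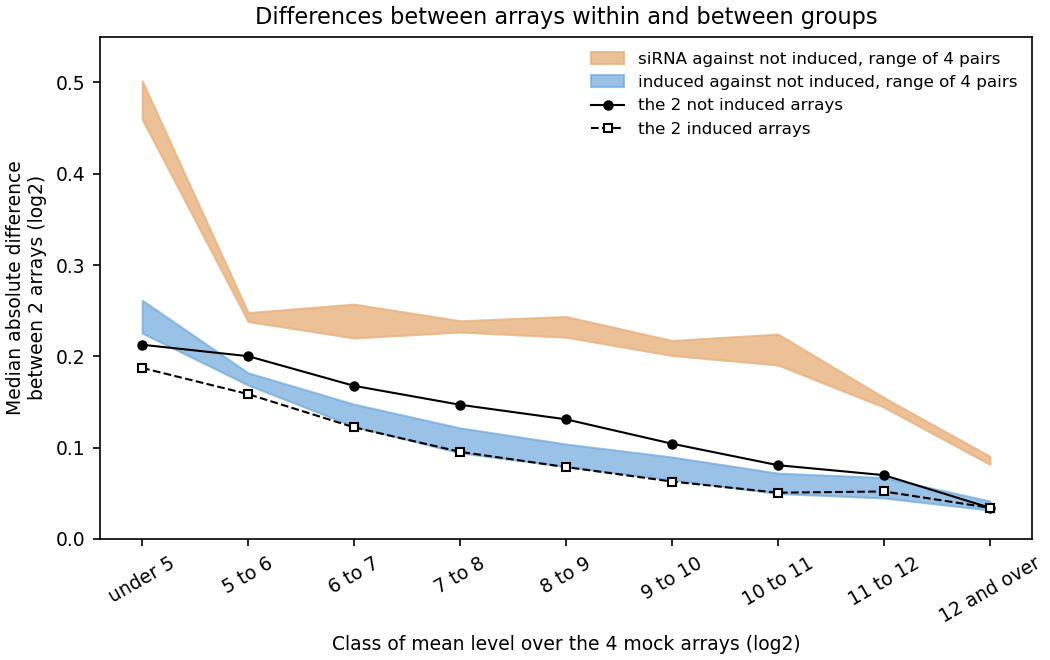
Median absolute difference between 2 arrays (log2, vertical) in classes of mean level over the mock arrays (log2, horizontal): lines for the pair within each mock group, the blue band for the range of the 4 induced against not induced pairs and the orange band for the 4 siRNA against not induced pairs. Over all genes the blue band spans 0.100 to 0.122 and the orange band 0.220 to 0.240, and the orange band lies above the blue in every class.

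Precision rose with level. Among the 275 genes with a mean under 5, 56.7% were bounded within 1.5-fold, and the median gene differed by 0.18 between the groups. From 5 to 6 the share was 78.3%, from 6 to 7 it was 94.1%, from 7 to 8 it was 98.5% and from 8 to 9 it was 99.4%. All genes with a mean of 9 or more were bounded within 1.5-fold. At 12 and over, the class of most ribosomal proteins, the median gene differed by 0.025. The 3 narrowest intervals were those of RPL41, RPL32 and RPS14, 3 ribosomal protein genes, where RPL41 read 14.11 and 14.12 without and 14.14 and 14.10 with induction and its 95% interval ran from -0.046 to 0.067. RPS10, RPS18 and RPS4X, the other genes of brightest signal, differed by -0.0022, -0.030 and 0.0068. Of the 1000 genes of highest mean signal in not induced cells, 979 were among the 1000 of highest mean in induced cells. The 2 single arrays of each group shared 957 and 970. Means of 2 arrays vary less than single arrays, so these counts are not like for like.

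**Figure D4:**
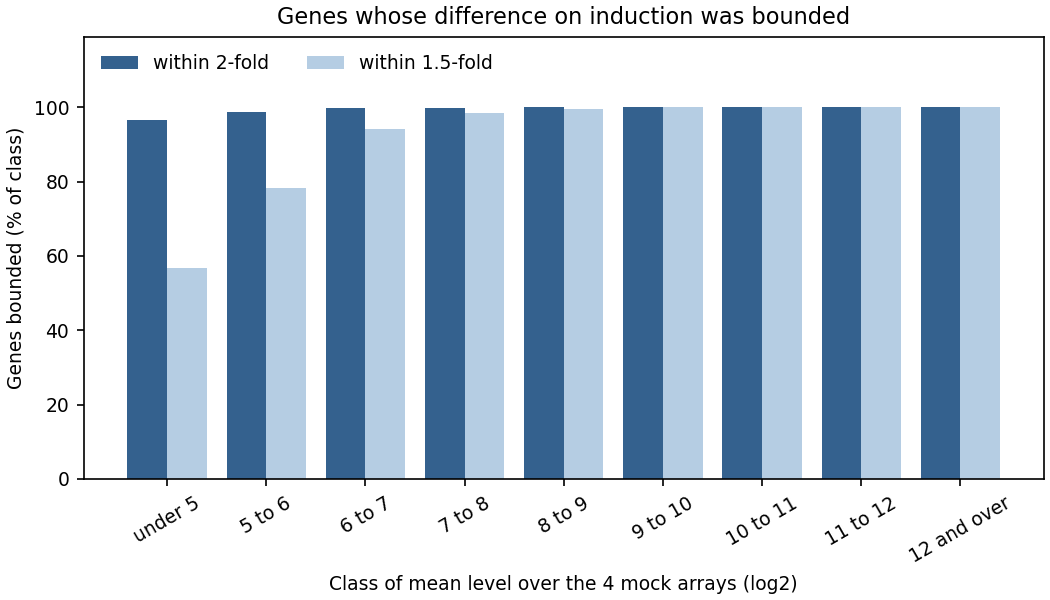
Share of genes (%) whose difference on induction was bounded within 2-fold (dark bars) and within 1.5-fold (light bars), in classes of mean level over the 4 mock arrays (log2). The share within 1.5-fold climbs from 56.7% under a level of 5 to 100% from 9 upward, and the share within 2-fold is 96.7% or more in each class.

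Targets of let-7 stayed close to their level without induction. Of 89 genes listed, 72 were in the table, and 38 read higher and 34 lower, with a median of 0.0077 beside -0.0049 over all genes (36 and 36 with arrays centred on their medians). None passed the test, 4 had an unadjusted p under 0.05 (all genes, 2.97%), and 72 were bounded within 2-fold and 69 within 1.5-fold. The differences ran from -0.35 to 0.29. HMGA2, a chromatin protein of embryonic cells and the textbook let-7 target, had the highest, reading 9.93 and 9.69 without and 10.13 and 10.07 with induction. Both induced arrays were above both not induced ones, for a difference of 0.29 (SE 0.081, limma adjusted p = 0.999), which was 0.41 with not induced replicate 1 left out and 0.17 with replicate 2 left out. SMARCAD1, a chromatin remodeller, had the lowest, at 8.97 and 8.93 without and 8.58 and 8.62 with induction, a difference of -0.35 (SE 0.096). NME6 read higher by 0.28 (SE 0.13), and DDX19B lower by -0.26 (SE 0.24). The targets with the brightest probe sets, GNG5, RRM2, NAP1L1 and IGF2BP2, differed by -0.078 to 0.13. MYC, a transcription factor and let-7 target, differed by -0.12 (SE 0.10). The groups did not overlap in 20 of the 72 (all genes, 27.5%), with 13 higher (all genes, 13.5%) and 7 lower (all genes, 14%).

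mRNAs described as bound by LIN28 proteins were likewise bounded. All 52 in the table lay within 1.5-fold, 26 higher and 26 lower, and 2 had an unadjusted p under 0.05 (all genes, 2.97%). The split was 31 higher and 21 lower without induced replicate 1, and 17 and 35 without induced replicate 2. Beside LIN28B at 0.19, the members farthest from 0 were HNRNPF, a splicing regulator, at -0.22 (SE 0.089), and IGF2BP2 and SDHC, an mRNA-binding protein and a subunit of succinate dehydrogenase, at 0.13 and -0.13. RPS6, NPM1, HNRNPA1 and NCL, the members of brightest signal, differed by -0.083 to 0.0034. Of 32 genes of small RNA processing and silencing, 10 read higher and 22 lower, and all were bounded within 1.5-fold. The median was -0.039. DDX17, a helicase of the Drosha complex, was farthest from 0 at -0.27 (SE 0.14), and RAN, the GTPase that drives export of microRNA precursors, differed by -0.012.

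Among the 27 lists with 7 or more genes in the table, the amino acid stress list had the highest median. These are genes of amino acid synthesis, uptake and tRNA charging that the transcription factor ATF4 is known to switch on when amino acids run short. Of 49 in the table, 39 read higher and 10 lower, with a median of 0.092. None passed the test, and 8 had an unadjusted p under 0.05 (all genes, 2.97%), all 8 higher. The groups did not overlap in 20, with 18 higher (all genes, 13.5%) and 2 lower (all genes, 14%). All 49 were bounded within 2-fold and 45 within 1.5-fold. Medians over the list were 0.086 to 0.14 in the 4 induced against not induced pairs, and -0.024 and 0.021 within the 2 groups. Between the 2 not induced arrays, the medians of the 27 lists ran from -0.128 (NF-kB and chemokine genes, 21 genes) to 0.0926 (HEK293 markers, 8 genes), with mitosis at -0.113. Those are the ends of 27 lists between single arrays. Means of 2 arrays vary less than single arrays, so these values are not like for like with 0.092. Leaving out each mock array in turn kept the median of the amino acid stress list between 0.077 and 0.126 and the number of higher members between 33 and 39. The members were not tested as a set, and their p-values share the same 4 arrays. Like all gene lists here, this list was chosen with earlier results of these data known, so its counts are no independent support.

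ASNS, asparagine synthetase, had the smallest p of the list. It read 10.94 and 10.87 without and 11.11 and 11.15 with induction, a difference of 0.23 (SE 0.052, 95% interval 0.11 to 0.34, limma adjusted p = 0.999). The induced arrays were above the not induced ones and the gene was still bounded within 1.5-fold. The probe set of ASNS can pick up related transcripts. PCK2, mitochondrial PEP carboxykinase, read 7.04 and 7.02 without and 7.43 and 7.40 with induction, a difference of 0.38 (SE 0.11). EPRS1, the synthetase that charges the tRNAs of glutamate and proline, read 10.46 and 10.28 without and 10.74 and 10.55 with induction, a difference of 0.27 (SE 0.083). ALDH1L2, a mitochondrial folate enzyme, read 4.89 and 4.86 without and 5.39 and 5.31 with induction, a difference of 0.48 (SE 0.18). CHAC1, which breaks down glutathione, read 5.07 and 5.41 without and 5.70 and 5.74 with induction, a difference of 0.48 (SE 0.17). ATF4 itself read 12.29 and 12.67 without and 12.39 and 12.52 with induction, so that its groups overlapped and the difference was -0.024 (SE 0.096). PHGDH and PSAT1, the first enzymes of serine synthesis and named after their values were seen, read higher by 0.19 (SE 0.062) and 0.23 (SE 0.10).

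Medians of related lists lay nearer 0 or below it, and these differences between lists were not tested. Of 17 cytosolic tRNA synthetases, which overlap the amino acid stress list, 12 read higher and 5 lower with a median of 0.045, but without not induced replicate 2 the median was -0.036 with 8 higher. All 17 were bounded within 1.5-fold. Their differences ran from -0.085, in TARS1, to 0.27, and NARS1 and IARS1 each differed by 0.045. Of 28 genes of ER chaperones and the unfolded protein response, 10 read higher and 18 lower, with a median of -0.021, and SEC61A1, the pore of the translocon, was farthest from 0 at -0.19 (SE 0.12). Of 15 heat shock genes, 4 read higher and 11 lower, with a median of -0.052, DNAJB4 at -0.16 and HSP90AA1 at 0.028. That median was -0.118 without not induced replicate 2, and 0.014 with probe sets for related transcripts left out, which kept only 2 of the 15 genes. Of 39 genes of insulin, IGF and mTOR signalling, 15 read higher and 24 lower, and the median of -0.053 was -0.084 without not induced replicate 1 and -0.0036 without replicate 2.

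All members of the mitochondrial lists were bounded within 1.5-fold, except in the list of mitochondrial translation. Lists outside the mitochondria, such as cytosolic ribosomal proteins and proteasome, were held as tightly or more so. Tetracyclines are known to act on mitochondrial ribosomes, and the arrays have no cells given doxycycline without the transgene, so drug and transgene cannot be told apart here. Of 102 genes of mitochondrial translation, 44 read higher and 58 lower, with a median of -0.012 (0.0015 after quantile normalization), and 99 were bounded within 1.5-fold. Without not induced replicate 1 the median was 0.0049 with 53 higher, and without replicate 2 it was -0.041 with 32 higher, so its direction rests on which array is kept. PARS2, which charges the mitochondrial proline tRNA, read 6.04 and 6.11 without and 6.43 and 6.48 with induction, a difference of 0.37 (SE 0.13). MRPL54, a protein of the large mitochondrial subunit, read 9.89 and 9.76 without and 9.67 and 9.54 with induction, a difference of -0.22 (SE 0.075). MTRF1, a release factor, and MRPL41 read higher by 0.28 (SE 0.23) and 0.21 (SE 0.22). MRPL3, MRPL51, MRPL36 and MRPL32, the members of brightest signal, differed by -0.10 to -0.014. All 69 genes of the respiratory chain and ATP synthase were bounded within 1.5-fold, 38 higher and 31 lower, from SDHC at -0.13 to NDUFS7 at 0.16. That split was 33 and 36 with arrays centred on their medians, and 25 and 44 without induced replicate 1. The 7 genes encoded in mitochondria were bounded as well, with ND2 at 0.093 (SE 0.043) and ND4 at -0.011. Of 19 genes of mitochondrial chaperones and proteases, HSPA9 was farthest from 0, at -0.12 (SE 0.077), and HSPD1 differed by 0.047.

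The translation, splicing and growth lists showed no called member. All 50 cytosolic ribosomal protein genes were bounded within 1.5-fold, 31 higher and 19 lower, with RPL37 farthest from 0 at 0.11 (SE 0.080). Of 38 translation factors, 37 were bounded within 1.5-fold. EIF3C was not, at 0.20 (SE 0.29), with induced arrays at 4.90 and 5.70. EEF1A1, the main elongation factor, differed by 0.0032. Of 52 splicing regulators, 22 read higher and 30 lower, with HNRNPR at -0.25 (SE 0.14). All 54 DNA replication genes were bounded within 1.5-fold, with CCNE2, a cyclin of S phase entry, at -0.24 (SE 0.13) and PCNA, the sliding clamp, at -0.045. Of 54 mitosis genes, 15 read higher and 39 lower with a median of -0.038. Without not induced replicate 1, 32 read higher and the median was 0.019, and without replicate 2 it was -0.091, so the direction of this list rests on which not induced array is kept. CENPN, a centromere protein, was farthest from 0 at -0.25 (SE 0.11), and 7 of the 54 had groups that did not overlap (all genes, 27.5%). All 37 proteasome genes and all 31 genes of sterol and fatty acid synthesis were bounded within 1.5-fold, with PSMB2 at -0.14 and SREBF2 at -0.22.

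**Figure D5:**
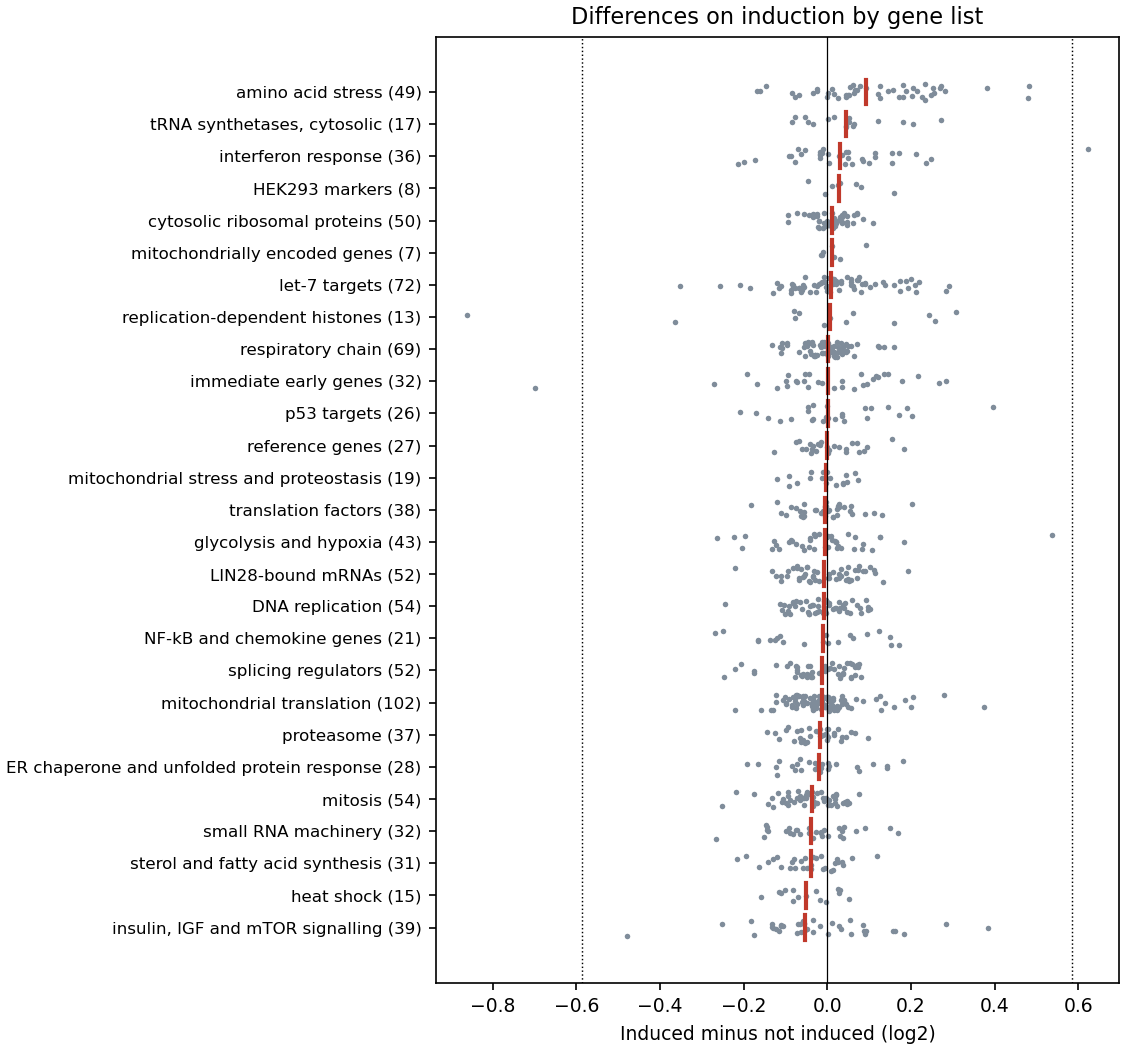
Difference between induced and not induced cells (log2, horizontal) for the members of each of the 27 gene lists with 7 or more genes in the table, 1 grey point per gene, with the number of members in brackets and a red bar at the median; dotted lines mark 1.5-fold. Of the lists drawn, amino acid stress has the highest median, 0.092, and insulin, IGF and mTOR signalling the lowest, -0.053, and the points outside 1.5-fold are H4C8, SPRED1 and PSMB9.

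The list members farthest from 0 had low levels. H4C8, a replication-dependent histone H4 gene, read 6.05 and 5.27 without and 4.72 and 4.88 with induction. The not induced arrays were far apart, the difference was -0.86 (SE 0.24), and the gene was not bounded within 2-fold. H2BC12, the brightest of the 13 histone genes, differed by 0.044. PSMB9, an immunoproteasome subunit of the interferon list, read 4.71 and 4.75 without and 5.41 and 5.30 with induction, a difference of 0.62 (SE 0.17). The siRNA arrays read it higher, at 5.73 and 6.01. Of the 36 interferon genes, 21 read higher and 15 lower, and B2M, the light chain of class I molecules, differed by -0.018. SPRED1, an inhibitor of the ERK cascade, read 5.25 and 5.54 without and 4.89 and 4.50 with induction, a difference of -0.70 (SE 0.19). The other immediate early genes were split, 16 of 32 in each direction with SPRED1 included, and 10 to 20 higher with a mock array left out. EPAS1, the hypoxia factor HIF2A, read 4.66 and 4.84 without and 5.42 and 5.15 with induction, a difference of 0.54 (SE 0.17), while GAPDH differed by -0.00031. TP53I11 of the p53 list differed by 0.40 (SE 0.21), with overlapping groups, and ICAM1 of the NF-kB list by -0.27 (SE 0.20). Of 27 reference genes all were bounded within 1.5-fold, with POLR2A farthest from 0 at 0.18 (SE 0.18) and TUBA1B, an alpha tubulin, at -0.039.

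Gene families taken by symbol gave the same picture. The 330 ZNF genes read higher in 163 and lower in 167, with 89.4% bounded within 1.5-fold. The 220 solute carriers split 108 to 112, with 90.0% bounded within 1.5-fold, and the 51 RAB genes 25 to 26. The 242 long non-coding RNA genes, whose median level was 5.88, had 137 higher and 105 lower and 82.2% bounded within 1.5-fold. Of the 44 DEAD and DEAH box helicases 18 read higher and 26 lower. The 18 tubulins and the 11 chaperonin genes were all bounded within 1.5-fold. The 31 kinesins split 11 higher to 20 lower. Beside 48% higher and 92.8% bounded over all genes, none of these shares was tested.

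Of all genes, 42 were not bounded within 2-fold. Among them 38 (90.5%) had a mean under 6, 20 read higher and 22 lower, and in 14 a pair of arrays of the same group was at least 2-fold apart, 10 in the not induced and 4 in the induced group. FBN3, TMA16 and ZNF623 had the widest intervals of all. ZNF623 read 5.29 and 3.47 without and 5.11 and 5.28 with induction, so that a single not induced array set its difference of 0.82 (SE 0.48). TMA16 was spread in both groups, at 6.13 and 4.63 without and 4.76 and 5.57 with induction. FBN3 was steady on the mock arrays, at 5.07 to 5.28, and took its wide interval from the siRNA arrays at 5.28 and 2.59, which share the estimate of the spread. AKIRIN2, a nuclear import adaptor of the proteasome and named after its values were seen, had the highest mean of the 44 genes at 1.5-fold or more. It read 9.09 and 7.64 without and 7.54 and 7.65 with induction, so that not induced replicate 1 stood alone and the groups overlapped. Its difference was -0.77 (SE 0.34), -0.046 without not induced replicate 1, and -1.49 without replicate 2 (limma adjusted p = 0.00199), the only call in any of the 17 alternatives.

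Whether induction and siRNA moved genes differently was tested by setting induced against siRNA arrays, since both effects are taken from the same not induced arrays. Of 11584 genes, 3295 (28.4%) were called, beside 3242 (28%) between siRNA and not induced arrays. Of the 44 genes at 1.5-fold or more on induction, 10 were called in the test of the difference (all genes, 28.4%). Those 44 genes were picked partly by the same induced arrays that this test uses, and so were the genes named next. Their calls are therefore no independent support for a response to induction. EPHX2 was above the siRNA arrays by 1.26 (SE 0.15, limma adjusted p = 0.00035), with siRNA arrays at 4.90 and 5.01. TIMP2 stood above the not induced arrays in both groups, but was below the siRNA arrays by -0.44 (SE 0.12, limma adjusted p = 0.0226), which read 7.43 and 7.45. PCK2 was above them by 1.17 (SE 0.11, limma adjusted p = 0.000104) and ALDH1L2 by 1.31 (SE 0.18, limma adjusted p = 0.000687). NR0B2 was above them by 0.72 (SE 0.19, limma adjusted p = 0.017). For PCK2 and ALDH1L2 the difference on induction, given above, was the smaller part of this gap. The siRNA effect enters every difference of this contrast, so a call in it is not a call on induction. With an induced or an siRNA array left out, 1702 to 2068 genes were called.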

How the data were processed

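Total RNA (2 µg per sample, per the labels' protocols) was read on Affymetrix U133 Plus 2.0 arrays. The authors deposited 1 log2 value per probe set, made with affy and GCRMA per the submitters' processing notes, whose versions are not stated there. The file does not name the log base, which was taken as GCRMA's base of 2. These sources do not say how the 13008 probe sets were chosen. Depth does not apply to arrays, and the number of arrays limits the precision. Symbols came from the platform annotation, updated to RefSeq (GRCh38.p14) for 11578 of 11584 genes. Of the probe sets, 609 had several symbols and 680 none listed, and these were left out. For 130 genes with several probe sets, that of highest mean over the 6 arrays was used. In all, 3941 genes were read by sets ending in _x_at or _s_at, which can pick up related transcripts. A filter (above 4 on at least 2 arrays) removed 0 genes.

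limma 3.58.1 in R 4.3.3 (lmFit, eBayes with trend) was fitted to all 6 arrays in 3 groups (residual df 3, prior df 6.73), so the siRNA arrays add to the estimate of the spread. Tests were two-sided with Benjamini-Hochberg adjustment, called at an adjusted p under 0.05. Equivalence used 2 one-sided moderated tests. The fit was tested on simulated data. The members and gene lists were chosen with earlier results of these data known. Named genes were LIN28B, the 10 of smallest p in each direction, the 3 narrowest and 3 widest intervals, the 5 of highest signal, and per list the member of highest mean and that of largest difference (4 of each for let-7 targets, LIN28-bound mRNAs, mitochondrial translation and amino acid stress). Lists with under 5 members in the table were given whole, and exceptions are marked. Alternatives were other normalizations, eBayes settings, filters, probe set rules, a replicate block and leaving out each array.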

Additional observations from a re-analysis of the deposited data

How the results depend on the processing

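Over the 17 alternatives, 0 genes were called different on induction, except for 1, AKIRIN2, without not induced replicate 2, so that leaving out arrays gave 0 to 1. Genes at an unadjusted p under 0.05 numbered 865 and 826 without not induced replicates 1 and 2, and 217 to 446 in the other alternatives. With probe sets ending in _x_at or _s_at left out, 7669 genes were tested, and fewer were counted by construction: 7638 (99.6%) bounded within 2-fold, 7032 (91.7%) within 1.5-fold and 2174 (28.3%) called between induced and siRNA arrays. Leaving out arrays gave 11432 to 11538 genes bounded within 2-fold, 9346 to 10735 within 1.5-fold, a LIN28B difference of 0.11 to 0.28, and 1702 to 3951 calls between induced and siRNA arrays (1928 and 1811 without induced replicates 1 and 2, 1702 and 2068 without siRNA replicates 1 and 2). Deviations of same-numbered induced and not induced arrays correlated at 0.181 over genes, with 2 pairs only, so the numbers were taken as names. With replicate number as a block, 0 genes were called (389 unadjusted), 11544 and 10821 were bounded within 2-fold and 1.5-fold, 3491 were called between induced and siRNA arrays, and the LIN28B difference was 0.19. It changed no other call. Of 459 list medians under alternatives 14 moved, and of 1738 values of named genes 57 changed sign, in 36 genes, all of which were uncalled; the cause was not tested. With arrays centred on their medians, EEF1A1 was -0.0030, HNRNPA1 -0.0044 and NPM1 -0.0028. With quantile normalization, HSP90AA1 was -0.016 and NPM1 -0.019. With the mean of a gene's probe sets, HNRNPA1 was -0.030 and ND4 0.011, and with _x_at and _s_at sets left out HNRNPA1 was -0.10. Leaving out arrays gave ATF4 -0.21 to 0.16, BIRC2 -0.033 to 0.085, CCNG1 -0.0031 to 0.074, CD79A -0.11 to 0.19, CHGB -0.0074 to 0.33, COL1A1 -0.23 to 0.053, DNAJB4 -0.35 to 0.036, EEF1A1 -0.019 to 0.025, EIF3C -0.20 to 0.60, GAPDH -0.015 to 0.014, GNG5 -0.061 to 0.21, HNRNPA1 -0.010 to 0.014, IGF2BP2 -0.0042 to 0.27, MRPL3 -0.041 to 0.013, MRPL36 -0.19 to 0.027, MRPL51 -0.075 to 0.035, MTRF1 -0.056 to 0.61, MYC -0.29 to 0.054, NAP1L1 -0.18 to 0.019, NARS1 -0.051 to 0.14, NDUFS7 -0.013 to 0.33, NPM1 -0.086 to 0.093, PDIA6 -0.15 to 0.024, POLR2A -0.15 to 0.52, PTTG1 -0.024 to 0.0022, RAN -0.029 to 0.0044, RPL32 -0.0050 to 0.0042, RPL41 -0.0078 to 0.029, RPS10 -0.030 to 0.026, RPS4X -0.027 to 0.041, TMA16 -0.96 to 0.53, TTR -0.019 to 0.13, VIM -0.050 to 0.039 and ZNF623 -0.091 to 1.73.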
